A study of Mus musculus with 8 samples.

Results

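The enzymes that build purine nucleotides were followed in 32D cells, a mouse myeloid line that grows on interleukin-3 (IL-3), with and without the glucose transporters GLUT1 and GLUT3. Members were the 10 genes of the table named Ppat, Gart, Pfas, Paics, Adsl, Atic, Impdh1, Impdh2, Gmps and Hprt, taken by name as the enzymes of this pathway. They are 10 of 56748 genes listed, and all 10 were among the 11818 genes that passed the filter on low values. The 32D cells expressed murine Jak2WT or Jak2V617F, the activated kinase of myeloproliferative neoplasms. In each background, clones grown from single cells either kept both transporters (GLUT1/3 WT) or carried CRISPR-Cas9 knockouts of Slc2a1 and Slc2a3 (GLUT1/3 dKO). This gave 4 groups, Jak2WT GLUT1/3 WT, Jak2WT GLUT1/3 dKO, Jak2V617F GLUT1/3 WT and Jak2V617F GLUT1/3 dKO, each with 1 library from clone 1 and 1 from clone 3. All cells had spent 24 h in serum-containing medium (glucose 5 mM, glutamine 1 mM, IL-3 2 ng/ml) before polyA RNA was sequenced. Clones derived from the same line share whatever the founder cells carried, and p-values measure the spread between clones only.

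Purine rings are assembled stepwise on phosphoribosyl pyrophosphate (PRPP), a sugar phosphate made from glucose through the pentose phosphate pathway. Ppat commits PRPP to the pathway, Gart, Pfas, Paics, Adsl and Atic carry it to inosine monophosphate (IMP), Impdh1, Impdh2 and Gmps turn IMP into GMP, and Adsl acts again on the branch to AMP. Hprt bypasses the assembly by joining hypoxanthine or guanine to PRPP, which is salvage. Dividing blood cells use both routes, and IMP dehydrogenase is a known drug target in lymphocytes.

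The promoters shown here belong to Gart, the member with the widest range over the libraries, and to Ppat and Paics, which are neighbours transcribed in opposite directions from start sites 276 bases apart. The sequences are RefSeq windows of 300 bases around the start site, most of them upstream. They come from a GRCm38.p6 table that held 9 of the 10 members, and each was placed on GRCm39 (mm39, the build of the deposited table) by its 1 perfect match there. Capitals mark motifs searched on both strands. These were the E-box, spelled CACGTG, the CCAAT box, spelled as its name, the GC box, spelled GGGCGG, and a site of the NRF1 type, spelled GCGCATGC. The motifs do not contain one another.
Gart, chr16:91443811-91444110, reverse strand: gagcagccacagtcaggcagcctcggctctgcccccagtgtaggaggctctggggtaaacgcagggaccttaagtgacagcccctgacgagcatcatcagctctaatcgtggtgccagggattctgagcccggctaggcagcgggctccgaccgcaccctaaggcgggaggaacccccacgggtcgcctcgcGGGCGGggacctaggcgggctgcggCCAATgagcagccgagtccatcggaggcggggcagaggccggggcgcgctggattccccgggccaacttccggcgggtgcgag
Ppat, chr5:77099376-77099675, reverse strand: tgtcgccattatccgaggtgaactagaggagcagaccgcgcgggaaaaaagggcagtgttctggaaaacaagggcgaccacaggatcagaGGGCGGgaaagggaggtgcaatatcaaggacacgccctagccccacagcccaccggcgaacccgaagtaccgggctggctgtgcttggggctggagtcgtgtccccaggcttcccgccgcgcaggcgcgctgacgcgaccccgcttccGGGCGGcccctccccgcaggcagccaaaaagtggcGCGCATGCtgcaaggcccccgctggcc
Paics, chr5:77098899-77099198, forward strand: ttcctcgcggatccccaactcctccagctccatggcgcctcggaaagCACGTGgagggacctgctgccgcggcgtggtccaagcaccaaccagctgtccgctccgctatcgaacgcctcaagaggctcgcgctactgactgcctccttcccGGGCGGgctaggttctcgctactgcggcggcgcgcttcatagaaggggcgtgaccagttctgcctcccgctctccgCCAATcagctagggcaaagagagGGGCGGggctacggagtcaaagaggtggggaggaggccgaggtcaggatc
The GC box was present in 9 of 9 members with a promoter, against 35.7% of the 32851 promoters of the table. The E-box, which MYC and related factors bind, was present in 3 members (Paics, Atic and Impdh2), against 7.15% of all promoters. CCAAT was present in 4 members, against 37.4%, and the NRF1 type site in Ppat alone, against 2.71%. The GC content of the windows lay between 53.7 and 71.3%. These matches are a description of the letters in these windows and were not tested.

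On mm39, Ppat (ENSMUSG00000029246) lies at chr5:77061096-77099425, Gart (ENSMUSG00000022962) at chr16:91418074-91443840, Pfas (ENSMUSG00000020899) at chr11:68876523-68899286 and Impdh1 (ENSMUSG00000003500) at chr6:29200433-29216363, all on the reverse strand. On the forward strand lie Paics (ENSMUSG00000029247) at chr5:77099154-77115356, Adsl (ENSMUSG00000022407) at chr15:80832691-80855147, Atic (ENSMUSG00000026192) at chr1:71596309-71618790, Impdh2 (ENSMUSG00000062867) at chr9:108437485-108442783, Gmps (ENSMUSG00000027823) at chr3:63883527-63930000 and Hprt (ENSMUSG00000025630) at chrX:52077014-52110536. Apart from Ppat and Paics, the members share sites in the table with genes of at most 5.21 FPKM.

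The libraries held 16846011 to 48884329 reads recovered from the deposited values, of which 1207 to 19024 fell on a member. Levels are given in FPKM (fragments scaled to gene length and library depth), which can be compared between genes. Hprt was the highest in every library, at 147 to 220.3 FPKM (median 184). It was followed by Paics, the bifunctional carboxylase and ligase of the middle steps, at 102 to 129.9 (median 117), and by Impdh2 at 87.5 to 105 (median 98.3), and the ranges of those 2 overlapped. Their order is not settled, since reads listed under a pseudogene of Impdh2, described below, may belong to Impdh2. Atic (median 40.9), Ppat (39.6) and Gart (37.9) formed a middle group with overlapping ranges between 19.2 and 51.1 FPKM. Impdh1 (23.6), Gmps (20.2), Pfas (18.1) and Adsl (17.4) were the lowest, between 10.8 and 29.4 FPKM, and their ranges overlapped too. Gart varied most over the libraries, 2.38-fold from the lowest to the highest, and Pfas was next at 2.03-fold. Impdh2 varied least, at 1.21-fold.

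**Figure D1:**
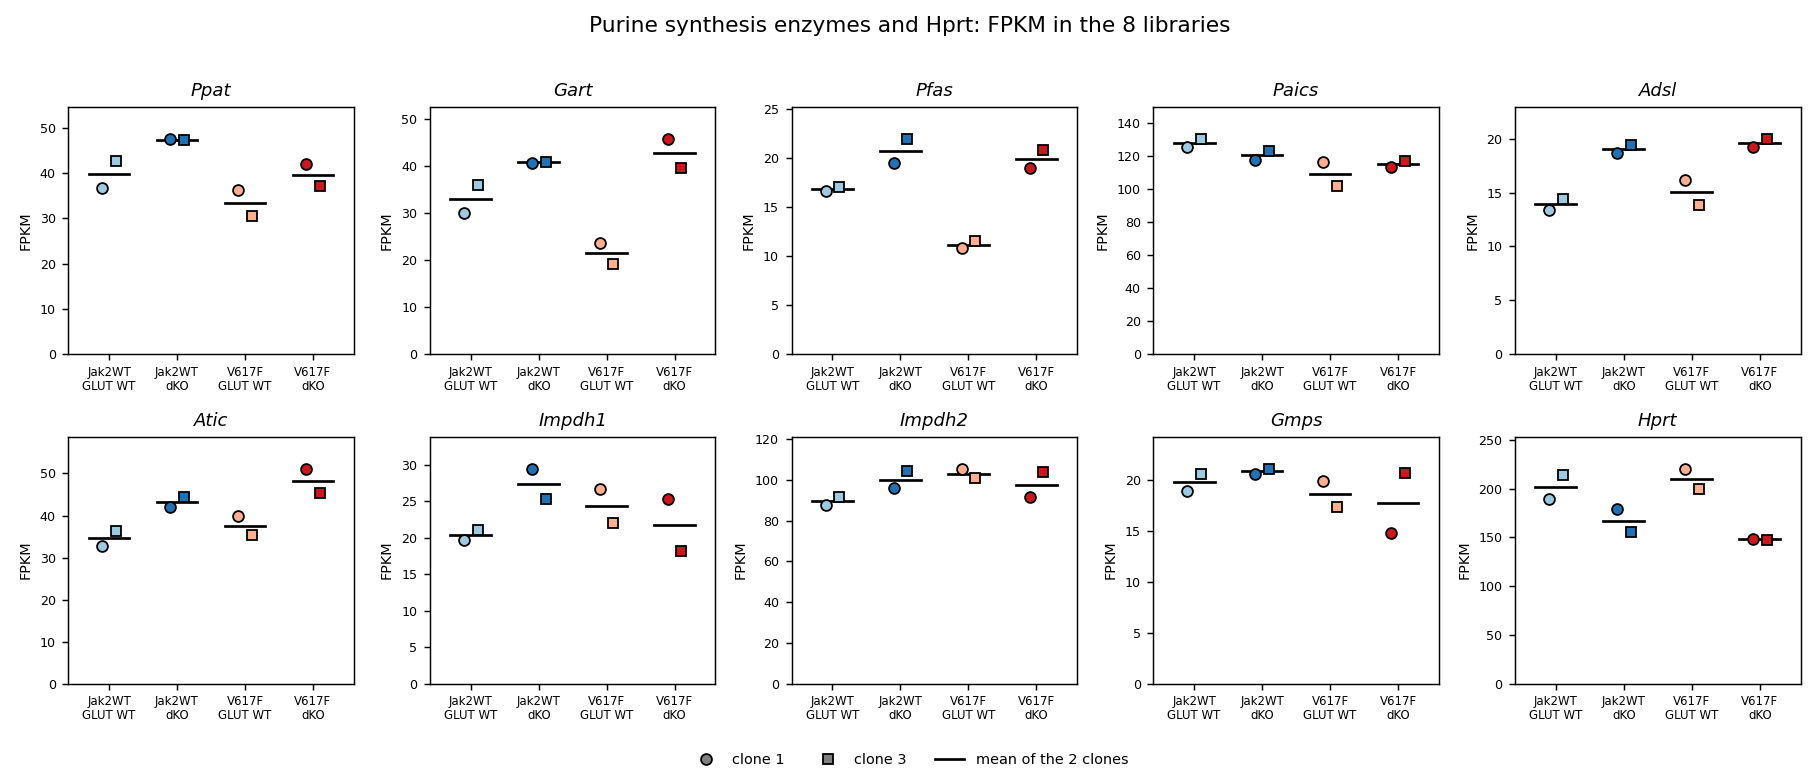
FPKM of the 10 genes in each of the 8 libraries (circles clone 1, squares clone 3, bars the mean of the 2 clones), grouped by Jak2 background and GLUT1/3 genotype, every axis from 0. Gart and Pfas were lowest in the Jak2V617F GLUT1/3 WT clones, and Hprt was lowest in the Jak2V617F GLUT1/3 dKO clones, at 149 and 147 FPKM.

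Before the members were compared, the targeted genes and the cell type were checked. Slc2a1 lay between 44.7 and 64.0 FPKM in the 4 GLUT1/3 WT libraries and between 9.17 and 17.3 in the 4 dKO libraries. Slc2a3 lay between 91.9 and 198 and between 16.0 and 49.5. Of 11 myeloblast markers, 4 passed the filter (Prtn3, Spi1, Ptprc and Csf2rb, the common receptor chain of the IL-3 family), whereas Mpo stayed at or under 0.0885 FPKM and Kit was listed at 0 throughout. The 11 summed to 213 to 241 FPKM in Jak2WT GLUT1/3 WT, 152 to 189 in Jak2WT dKO, 188 to 192 in Jak2V617F GLUT1/3 WT and 80.3 to 84.0 in Jak2V617F dKO. Called lower with the dKO in Jak2V617F were 3 of the 4 tested (Spi1, Ptprc and Csf2rb), against 16.2% of all genes. The summed FPKM of 10 erythroid markers, most of it from globin genes in every library but Jak2WT GLUT1/3 WT clone 1, lay at 94.0 to 112 in Jak2WT GLUT1/3 WT, 246 to 291 in Jak2WT dKO, 553 to 910 in Jak2V617F GLUT1/3 WT and 2582 to 4679 in Jak2V617F dKO. With the dKO in Jak2V617F, 5 of the 7 tested were called higher and 1 lower, against 13.7% and 16.2% of all genes. The lower one was Gata1 (58.1 and 48.7 FPKM against 41.1 and 34.0), while Alas2 and Slc4a1 stayed at or under 0.312 FPKM throughout. The 5 megakaryocyte markers summed to 65.1 to 65.7, 88.7 to 94.3, 197 to 209 and 229.5 to 269.6 in the same order. The 5 mast cell and basophil markers summed to 51.0 to 101 in the Jak2WT libraries, nearly all Cpa3, and to at most 1.67 in the Jak2V617F libraries. The 5 lymphoid and 4 stromal markers summed to at most 0.881 and 0.0383. In bulk RNA, fewer cells of a type and less RNA per cell cannot be told apart, and the part of these shifts in the results below was not tested.

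In the Jak2V617F background, 4 enzymes of IMP synthesis were higher and Hprt was lower in the dKO clones than in the GLUT1/3 WT clones. The calls of Adsl, Atic and Hprt were lost under some alternatives given below. Gart and Pfas rose most, with ratios of the mean FPKM of 1.99 and 1.78, and Adsl and Atic rose with ratios of 1.30 and 1.28. Ppat, Paics and the 3 enzymes of the guanine branch did not pass the test. By limma on log2(FPKM + 1), with Benjamini-Hochberg adjusted p-values (11818 genes) and a threshold of 0.05, 4 of 10 members were higher and 1 lower. Of all genes tested, 13.7% were called higher and 16.2% lower in this comparison. The median log2 fold change was 0.16 over the members and -0.02 over all genes.

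Gart is a trifunctional enzyme of the early steps. It had 23.7 and 19.2 FPKM in Jak2V617F GLUT1/3 WT clones 1 and 3 and 45.7 and 39.7 in Jak2V617F dKO clones 1 and 3, so that no library of one group reached the other. The ratio of the group means (42.7 ± 4.27 against 21.5 ± 3.16, SD, n = 2) was 1.99, and the log2 fold change was 0.96 (SE 0.13, limma adjusted p = 0.00245). Pfas, which adds the nitrogen of glutamine, had 10.8 and 11.6 FPKM in the GLUT1/3 WT clones and 19.0 and 20.9 in the dKO clones. Its log2 fold change was 0.78 (SE 0.09, limma adjusted p = 0.00136), and again the groups did not overlap. Both calls were kept under all 18 alternatives tried, with log2 fold changes of 0.82 to 1.11 for Gart and 0.72 to 0.92 for Pfas.

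Adsl, the lyase that serves both IMP and AMP synthesis, had 16.2 and 13.9 FPKM in the Jak2V617F GLUT1/3 WT clones and 19.2 and 20.0 in the dKO clones. Its log2 fold change was 0.37 (SE 0.09, limma adjusted p = 0.0237). Atic, the bifunctional enzyme that closes the ring, had 39.9 and 35.3 FPKM against 51.1 and 45.4, with a log2 fold change of 0.35 (SE 0.10, limma adjusted p = 0.0365). These changes were smaller than those of Gart and Pfas, and the calls depended on the fit and on the clones. With only the groups compared in the fit, the limma adjusted p-values were 0.0944 for Adsl and 0.108 for Atic, and Atic also lost the call with no filter (0.0758). Without Jak2V617F GLUT1/3 WT clone 3 the adjusted p-values were 0.0958 for Adsl and 0.145 for Atic, and without Jak2V617F dKO clone 1 they were 0.0549 and 0.141. Adsl also lost the call without Jak2V617F dKO clone 3 (adjusted p = 0.0760). Atic also lost it without any library of the Jak2WT clones (0.0562 to 0.0594), where its own values did not change.

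Hprt went the opposite way. It had 220.3 and 200.1 FPKM in the Jak2V617F GLUT1/3 WT clones and 149 and 147 in the dKO clones, a ratio of means of 0.705, and it fell by 0.50 on the log2 scale (SE 0.10, limma adjusted p = 0.0119). The groups did not overlap. Without Jak2V617F GLUT1/3 WT clone 1, the log2 fold change was -0.43 and the adjusted p was 0.0600. This gene was the one against which the study scaled its RT-qPCR values.

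The remaining members of this comparison stayed within the error. Ppat, the amidotransferase of the first step, had 36.3 and 30.5 FPKM in the GLUT1/3 WT clones and 42.0 and 37.1 in the dKO clones, with a log2 fold change of 0.24 (95% confidence interval -0.03 to 0.51, limma adjusted p = 0.158). Its groups did not overlap, and it was called higher when each library was scaled to the same summed FPKM (0.33, adjusted p = 0.0307) and by voom on the recovered reads (0.35, 0.0209). Paics had 116 and 102 FPKM against 113 and 117, with overlapping groups and a log2 fold change of 0.08 (interval -0.13 to 0.29). Ppat and Paics overlap head to head by 272 bases in the deposited table, and since the strand setting of the counting is not stated, reads in that stretch could have gone to neither or either gene. In this comparison 5 members were higher and 1 lower with no overlap of the libraries, against 29.9% and 34.4% of all genes, a share that is large because each group has 2 libraries.

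**Figure D2:**
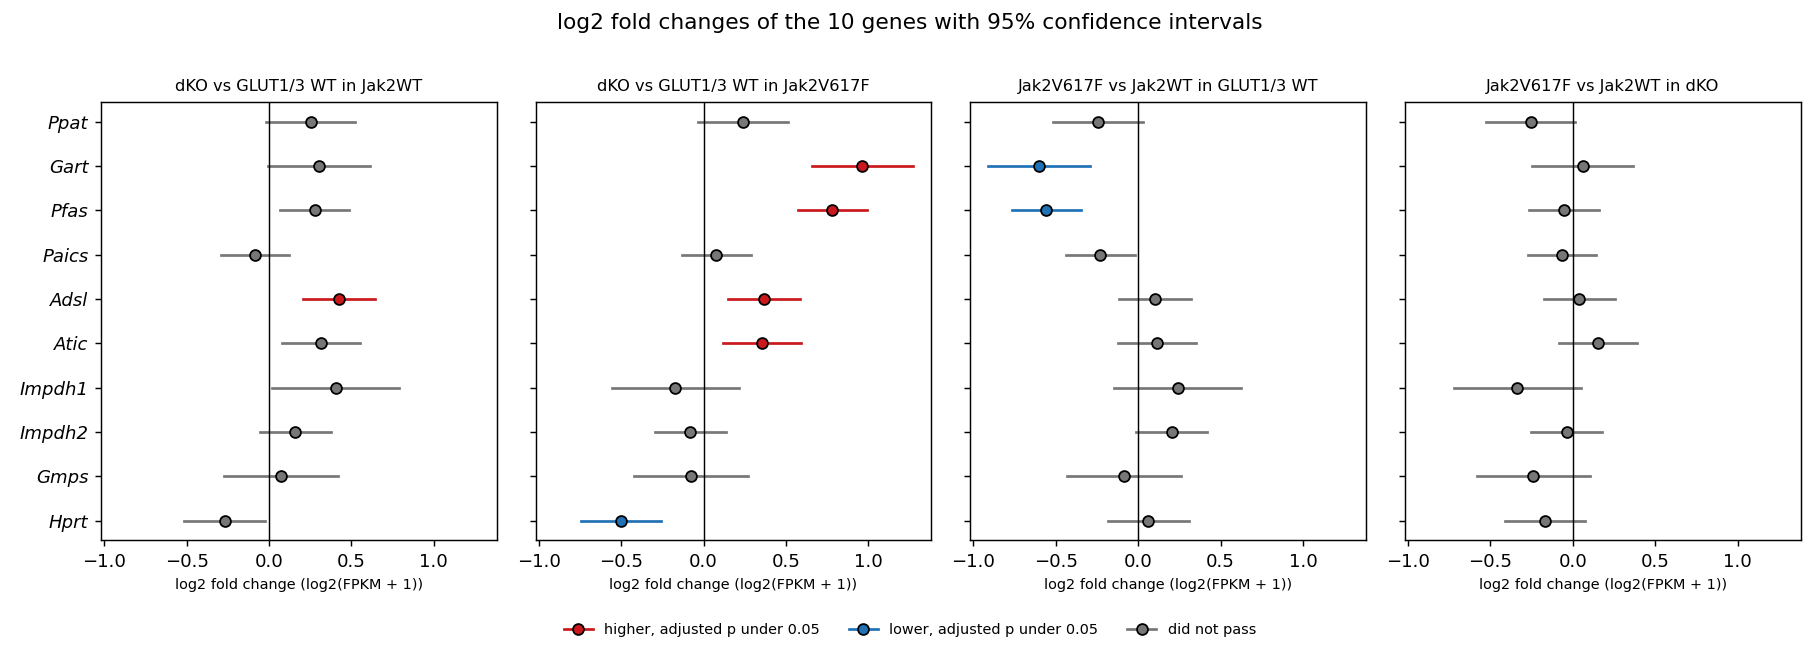
log2 fold changes of the 10 genes on the log2(FPKM + 1) scale in the 4 comparisons of 2 groups, points the estimates and lines their 95% confidence intervals from limma, red and blue for adjusted p under 0.05. The dKO in Jak2V617F gave 4 higher and 1 lower, and the comparison of the backgrounds among dKO clones gave none.

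In the Jak2WT background, most members had small positive differences between the dKO and the GLUT1/3 WT clones, and 1 of 10 passed the test. Adsl had 13.4 and 14.4 FPKM in the GLUT1/3 WT clones and 18.7 and 19.4 in the dKO clones, with a log2 fold change of 0.43 (SE 0.09, limma adjusted p = 0.0272). It rose to nearly the same level in the dKO clones of both backgrounds. No member was called lower, whereas 1 (Hprt) was lower at an unadjusted p under 0.05 and by voom. Of all genes tested, 7.62% were called higher and 6.06% lower. The call of Adsl was lost without any 1 of the 4 Jak2WT libraries (adjusted p = 0.102 to 0.170) and with no filter on low values (0.0641).

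Of the 10 differences, 8 were positive here, and the median over the members was 0.27 on the log2 scale against 0.01 over all genes. Pfas (16.7 and 17.1 FPKM against 19.5 and 21.9) and Atic (32.8 and 36.4 against 42.0 and 44.5) had log2 fold changes of 0.28 and 0.31 and limma adjusted p-values of 0.0812 and 0.0803. Gart (30.0 and 36.0 against 40.7 and 41.0) and Ppat (36.8 and 42.6 against 47.5 and 47.3) had values of 0.30 and 0.25 with adjusted p = 0.163 and 0.184. None of these 4 passed, although every dKO library lay above every GLUT1/3 WT library. In all, 8 members were higher and 2 lower with no overlap, against 34.1% and 32% of all genes. Paics (125 and 129.9 against 118 and 123) had -0.08 and Hprt (189 and 214 against 179 and 155) had -0.27 (adjusted p = 0.561 and 0.127). Hprt was called lower with each library scaled to the same summed FPKM (-0.37, adjusted p = 0.0191) and by voom (-0.33, 0.0239).

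Among the clones with intact transporters, Jak2V617F had lower levels of Gart and Pfas than Jak2WT. Gart lay at 23.7 and 19.2 FPKM in Jak2V617F and at 30.0 and 36.0 in Jak2WT, and fell by 0.60 on the log2 scale (SE 0.13, limma adjusted p = 0.0138). Pfas lay at 10.8 and 11.6 against 16.7 and 17.1, and fell by 0.56 (SE 0.09, limma adjusted p = 0.00461). No member was called higher, by limma or voom, and none was higher at an unadjusted p under 0.05. The shares over all genes were 15.3% higher and 14.9% lower. Pfas kept the call under all 18 alternatives, while Gart lost it without Jak2WT GLUT1/3 WT clone 3 (-0.47, adjusted p = 0.0920) and without Jak2V617F GLUT1/3 WT clone 3 (-0.46, 0.0629).

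Ppat and Paics were lower in Jak2V617F without passing, with log2 fold changes of -0.24 and -0.23 (limma adjusted p = 0.153 and 0.0899). Both were called lower when each library was scaled to the same summed FPKM (-0.39, adjusted p = 0.0149, and -0.38, 0.00565) and by voom (-0.36, 0.0180, and -0.34, 0.00724). Paics was also called without Jak2V617F GLUT1/3 WT clone 1 (-0.33, 0.0495). Adsl, Atic and Hprt had differences of 0.10, 0.12 and 0.06, and each of these turned negative with the same summed FPKM. With no overlap of the libraries, 2 members were higher and 4 lower, against 35.8% and 33.6% of all genes.

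Among the dKO clones, the backgrounds could not be told apart at any member. No member was called in either direction by limma or by voom, and none had an unadjusted p under 0.05 (the lowest was 0.0613, for Ppat). Of all genes, 7.12% were called higher and 9.96% lower in Jak2V617F dKO than in Jak2WT dKO. Gart had 45.7 and 39.7 FPKM in Jak2V617F dKO and 40.7 and 41.0 in Jak2WT dKO, a log2 fold change of 0.06 with an interval of -0.25 to 0.37. Pfas had 19.0 and 20.9 against 19.5 and 21.9, with -0.05 and an interval of -0.26 to 0.16. With no overlap, 1 member was higher and 4 were lower, against 27.5% and 33.1% of all genes. Gmps was called lower without Jak2V617F dKO clone 3 (-0.46, adjusted p = 0.0370), the clone in which it was the higher of the pair.

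Whether the effect of the dKO differed between the backgrounds was tested by the interaction. Pfas passed, with an effect larger in Jak2V617F by 0.50 on the log2 scale (SE 0.13, limma adjusted p = 0.0482). Gart had the larger difference, 0.66 (SE 0.19), and did not pass (adjusted p = 0.0642), but did so with the same summed FPKM (0.85, 0.0178) and by voom (0.84, 0.00791). No member was called lower by limma or voom, while 1 (Impdh1, -0.58, adjusted p = 0.148) was lower at an unadjusted p under 0.05. Of all genes tested, 4.72% were called higher and 5.91% lower in the interaction. The call of Pfas is close to the threshold. It was lost in each of the 8 fits that left out 1 library (adjusted p = 0.0509 to 0.165), with no filter (0.0914) and with no intensity trend (0.0653). Adsl, whose dKO effect was called in both backgrounds, had an interaction of -0.06 with an interval of -0.37 to 0.25.

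The 12 proliferation genes of a fixed list (the Mcm2 to Mcm7 helicase subunits, Pcna, Mki67, Top2a, Cdk1, Ccna2 and Ccnb1) were set beside Gart and Pfas. Their summed FPKM was 904 and 937 in Jak2WT GLUT1/3 WT clones 1 and 3, 809 and 927 in Jak2WT dKO, 559 and 508 in Jak2V617F GLUT1/3 WT and 944 and 1035 in Jak2V617F dKO. The Jak2V617F GLUT1/3 WT clones were thus the lowest in these genes as they were in Gart and Pfas. Of the 12 genes, 10 were called higher in Jak2V617F dKO than in Jak2V617F GLUT1/3 WT (median log2 fold change 0.96), against 13.7% of all genes. Among GLUT1/3 WT clones, 10 were called lower in Jak2V617F than Jak2WT (-0.71), against 14.9%. In the interaction 9 were called higher (1.05), against 4.72%. In Jak2WT, 0 were called higher and 1 lower with the dKO (-0.02), against 7.62% and 6.06%. Among dKO clones, where neither Gart nor Pfas was called, 2 were higher in Jak2V617F (Mcm6, 0.37, and Pcna, 0.51), against 7.12%. Within the list, Ccna2 (46.7 and 41.2 FPKM in Jak2V617F GLUT1/3 WT, 41.7 and 50.7 in Jak2V617F dKO) and Ccnb1 (44.1 and 43.0, 30.8 and 47.8) overlapped between these groups. The study reported impaired proliferation of the dKO clones. For Jak2V617F dKO it proposes cells stalled at the G1/S checkpoint as the more likely reading of mitogenic gene expression. The summed levels are thus not a rate of division. The part of cell division in the levels of Gart and Pfas was not tested.

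**Figure D3:**
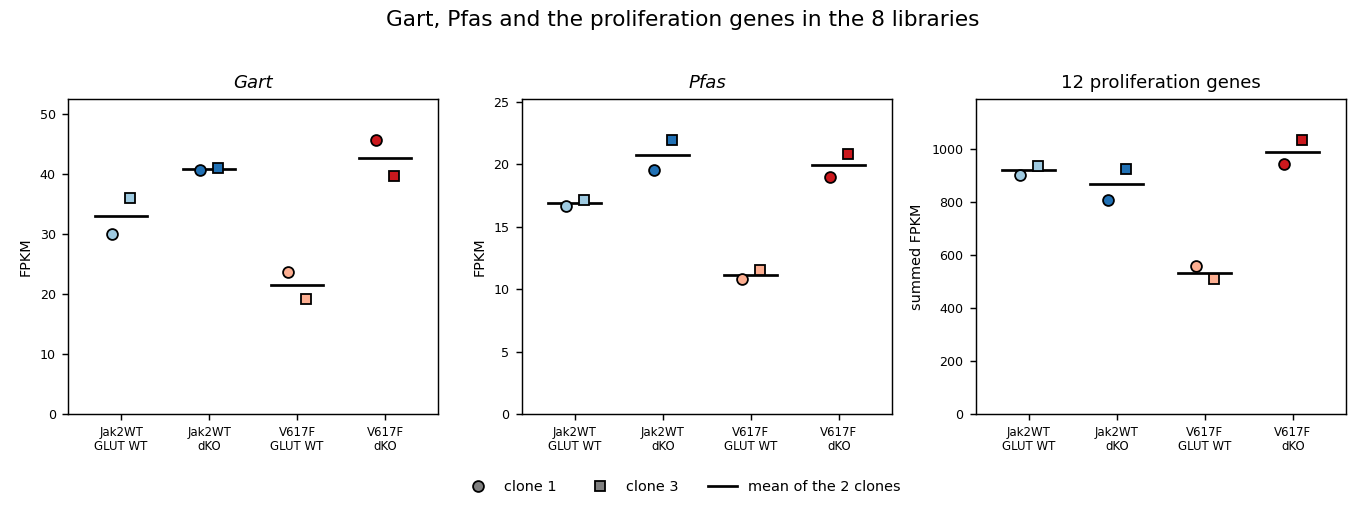
FPKM of Gart and Pfas and the summed FPKM of 12 proliferation genes in the 8 libraries (circles clone 1, squares clone 3, bars the mean of the 2 clones), every axis from 0. In all 3 panels the Jak2V617F GLUT1/3 WT clones were lowest, with 559 and 508 summed FPKM for the proliferation genes.

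No enzyme of the guanine branch passed the test in any comparison. Impdh2, the main IMP dehydrogenase of dividing cells, had 87.5 and 91.4 FPKM in Jak2WT GLUT1/3 WT, 95.9 and 104 in Jak2WT dKO, 105 and 101 in Jak2V617F GLUT1/3 WT and 91.6 and 104 in Jak2V617F dKO. Its largest log2 fold change between 2 groups was 0.20 (Jak2V617F against Jak2WT among GLUT1/3 WT clones, limma adjusted p = 0.133). Impdh1, the second IMP dehydrogenase, had 19.7 and 21.1, 29.4 and 25.3, 26.7 and 22.0, and 25.2 and 18.1 FPKM in the same order of groups. Its log2 fold change with the dKO was 0.40 in Jak2WT (adjusted p = 0.142) and -0.17 in Jak2V617F (0.468), and the former was called only when the 2 groups were fitted alone (0.0478). Gmps, the GMP synthetase, had 18.9 and 20.5, 20.5 and 21.0, 19.8 and 17.3, and 14.8 and 20.6 FPKM. Its Jak2V617F dKO clones differed from each other by more than any group means did. Impdh2 made up 76.5 to 85.1% of the summed FPKM of both dehydrogenases in a library, and these extremes were clones of the 2 dKO groups.

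The level of Impdh2 carries an uncertainty of its own. The table also lists Impdh2-ps, a processed pseudogene of 1545 bases at chr8:100757190-100758734 on the forward strand, with 49.3 to 61.5 FPKM. In the reference genome its sequence was identical to the coding sequence of the transcript Impdh2-201 at 1541 of 1545 positions (99.7%). The substitutions, counted from the first base of the start codon with the Impdh2 base first, were C270T, T882C, A891G and C1135T. Of all windows of 150 bases, the length of a read, 67.1% held none of them. These windows stand for single reads within the coding sequence. In a read pair, both reads would have to hold none, and that share was not computed. The pseudogene had 28.0 to 30.0 reads for every 100 reads of Impdh2, a ratio that hardly moved between groups. How reads with equal matches to both were assigned is not stated, so their source cannot be told apart. With the reads of both added, a setting chosen after the values were seen, the log2 fold changes of Impdh2 were between -0.10 and 0.22 in the 4 comparisons of 2 groups and none passed.

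Around these enzymes, 47 other genes of purine metabolism and related nucleotide steps were listed by role, and 37 of them passed the filter. In Jak2V617F, 15 of 37 (40.5%) were called higher and 6 (16.2%) lower with the dKO (median log2 fold change 0.14), against 13.7% and 16.2% of all genes. In Jak2WT these counts were 8 (21.6%) and 2 (5.41%), with a median of 0.13, against 7.62% and 6.06%. For Jak2V617F against Jak2WT they were 6 and 6 among the GLUT1/3 WT clones (16.2% each, against 15.3% and 14.9%) and 2 and 3 among the dKO clones (5.41% and 8.11%, against 7.12% and 9.96%). For the interaction they were 2 and 2 (5.41% each, against 4.72% and 5.91%). The shares called lower with the dKO, and both shares in the last 3 comparisons, were thus near those of all genes. Genes are named below where they had 1 of the 4 largest changes in a direction among those called, except for the PRPP group, which was named after its values were seen.

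PRPP synthetases supply the substrate of both Ppat and Hprt. Of the 5 tested genes of this group, 3 were higher and 1 lower with the dKO in Jak2V617F, against 13.7% and 16.2% of all genes. Prps1, the main synthetase, had 59.3 and 48.4 FPKM in Jak2V617F GLUT1/3 WT and 81.6 and 86.0 in Jak2V617F dKO, a log2 fold change of 0.64 (SE 0.12, limma adjusted p = 0.00792) that was called under all 18 alternatives. Prps2 (0.41, adjusted p = 0.0425) and Prps1l3 (0.46, 0.0357) were called with less margin. Both lost the call with no filter (0.106 and 0.0969) and with only the groups compared (0.130 and 0.118). Prps2 also lost it with no intensity trend (0.0553) and with the clone number as a block (0.0628). Leaving out any 1 of the 4 Jak2WT libraries, Jak2V617F GLUT1/3 WT clone 3 or Jak2V617F dKO clone 3 lost both calls, and leaving out Jak2V617F dKO clone 1 lost that of Prps1l3. Prps1l3 is close in sequence to Prps1, and how their shared reads were divided is not stated. Prpsap1, which encodes a protein associated with the synthetase, fell by 0.49 (SE 0.07, 0.00299). In Jak2WT, Prps1l3 (0.55, adjusted p = 0.0368) was higher and Prpsap1 (-0.29, 0.0367) was lower with the dKO. Both lost the call without any 1 of the 4 Jak2WT libraries. Prps1l3 also lost it with no filter (0.104), and Prpsap1 with no intensity trend (0.0522) and with the clone number as a block (0.0580).

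In salvage and breakdown, Dck and Ada rose with the dKO in Jak2V617F. Dck, the kinase that salvages deoxynucleosides, had 10.7 and 10.0 FPKM in Jak2V617F GLUT1/3 WT and 29.1 and 23.7 in Jak2V617F dKO, a log2 fold change of 1.26 (SE 0.11, limma adjusted p = 0.000529), beside 19.4 and 19.3 in Jak2WT GLUT1/3 WT and 19.6 and 21.1 in Jak2WT dKO. Ada, adenosine deaminase, had 2.68 and 1.99 against 6.58 and 7.51 in Jak2V617F, a log2 fold change of 1.27 (SE 0.15, 0.00145), and 4.91 and 6.16 against 4.58 and 5.56 in Jak2WT. Both genes were, like Gart and Pfas, lowest in Jak2V617F GLUT1/3 WT, where they were below Jak2WT by 0.84 and 0.97 on the log2 scale (adjusted p = 0.00200 and 0.00410). Both also passed in the interaction, at 1.19 (0.010) and 1.38 (0.0155). These interaction calls were lost without either Jak2WT GLUT1/3 WT clone or Jak2WT dKO clone 1 (adjusted p = 0.0502 to 0.0687).

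Xdh, the oxidase that makes uric acid in purine breakdown, was highest in Jak2V617F GLUT1/3 WT, where Gart and Pfas were lowest. It had 0.228 and 0.101 FPKM in Jak2WT GLUT1/3 WT, 1.94 and 1.41 in Jak2WT dKO, 11.2 and 14.7 in Jak2V617F GLUT1/3 WT and 0.916 and 1.99 in Jak2V617F dKO. The Jak2V617F GLUT1/3 WT clones stood above all other libraries. On the log2(FPKM + 1) scale it was higher in Jak2V617F by 3.57 among the GLUT1/3 WT clones (SE 0.23, limma adjusted p = 0.000192), fell by 2.53 with the dKO in Jak2V617F (0.000633) and was higher by 1.19 with the dKO in Jak2WT (0.0198). The interaction was -3.73 (SE 0.33, 0.00867), and was lost without Jak2WT GLUT1/3 WT clone 3 (0.0522). Since its lowest values are well under the pseudocount of 1, these values understate the change, and over the alternatives the first ranged from 3.39 to 6.08, the change in Jak2WT from 1.05 to 3.13 and the interaction from -6.36 to -3.41. The change in Jak2WT was lost without any 1 of the 4 Jak2WT libraries (adjusted p up to 0.117).

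Of the 12 tested genes of interconversion, 5 were called higher and 2 lower with the dKO in Jak2V617F, against 13.7% and 16.2% of all genes. In Jak2WT, 3 were higher and 1 lower, against 7.62% and 6.06%. Ak4, a mitochondrial adenylate kinase, had 57.6 and 58.7 FPKM in Jak2WT GLUT1/3 WT, 28.5 and 29.4 in Jak2WT dKO, 56.0 and 47.9 in Jak2V617F GLUT1/3 WT and 18.2 and 18.6 in Jak2V617F dKO. It fell by 0.98 and 1.45 on the log2 scale with the dKO (limma adjusted p = 0.00259 and 0.000357), and was lower by 0.63 in Jak2V617F dKO than in Jak2WT dKO (0.00491), all kept under 18 of 18 alternatives. Ak1, the cytosolic adenylate kinase, was higher with the dKO in both backgrounds, by 0.96 in Jak2WT (adjusted p = 0.0267) and 0.73 in Jak2V617F (0.0353), although the first call was lost without any 1 of the 4 Jak2WT libraries (up to 0.144) and the second without either Jak2WT dKO clone, either Jak2V617F GLUT1/3 WT clone or Jak2V617F dKO clone 1 (up to 0.146). Shmt1, the cytosolic serine hydroxymethyltransferase, rose by 0.65 in Jak2WT (0.0123) and by 0.99 in Jak2V617F (0.00111), the former lost without any 1 of the 4 Jak2WT libraries (0.0515 to 0.0912). Mthfd2, the mitochondrial enzyme of the folate cycle, had 62.5 and 71.5 FPKM in Jak2V617F GLUT1/3 WT and 33.0 and 35.9 in Jak2V617F dKO, and fell by 0.94 (0.000713), with an interaction of -1.10 (0.00881) that was lost without either Jak2WT GLUT1/3 WT clone or Jak2WT dKO clone 1 (0.0502 to 0.0570). Mthfd1l, also mitochondrial, fell by 0.57 (0.00967) in Jak2V617F. Its call was lost with only the groups compared (0.0569) and without Jak2V617F GLUT1/3 WT clone 1. Formyl groups enter the ring at the steps of Gart and Atic. Of the 5 tested genes of this list, 2 were higher (Shmt1 and Mthfd1) and 2 lower (Mthfd2 and Mthfd1l) with the dKO in Jak2V617F, against 13.7% and 16.2% of all genes. The other, Shmt2, the most abundant of them, had 92.5 and 108 FPKM in Jak2V617F GLUT1/3 WT and 103 and 116 in Jak2V617F dKO (log2 fold change 0.13, adjusted p = 0.389). Mthfd1 and Shmt2 were named after their values were seen.

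**Figure D4:**
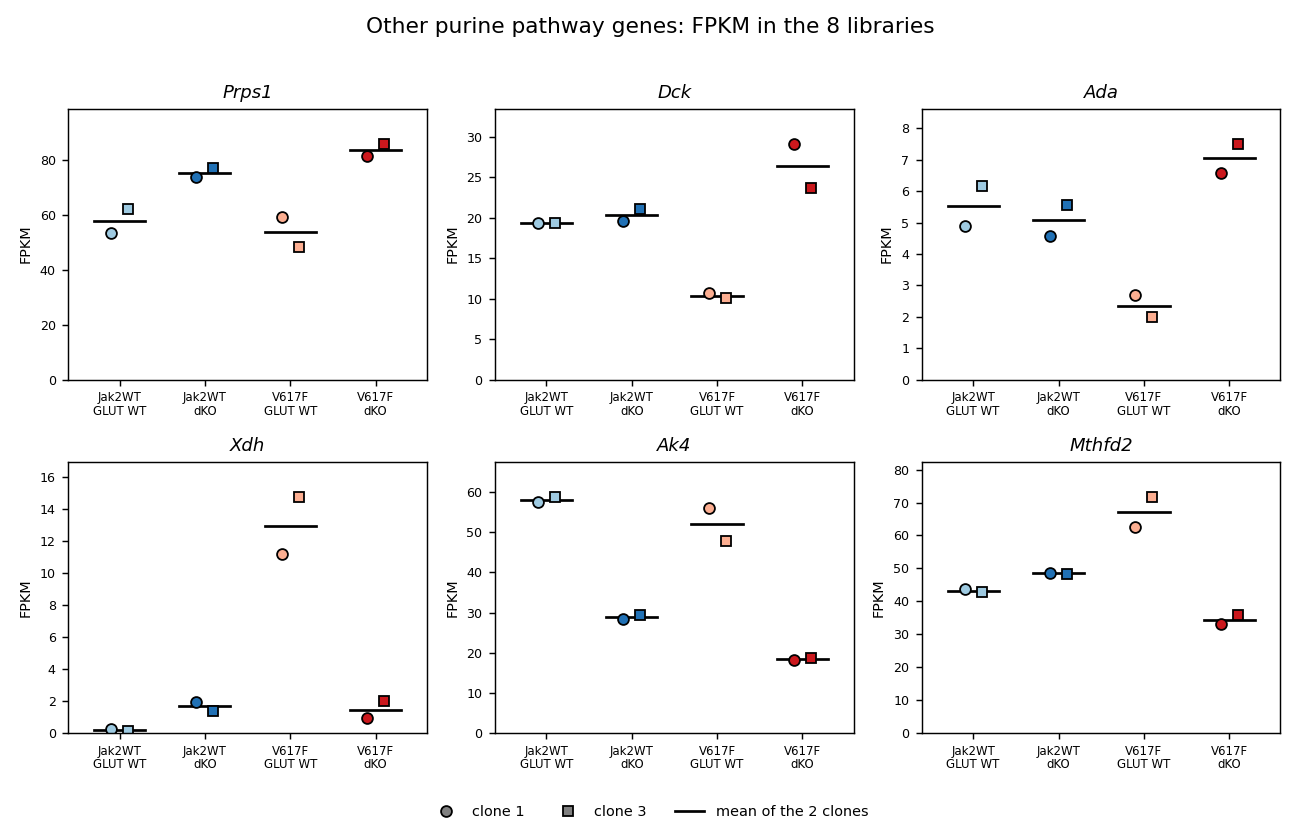
FPKM of 6 genes that supply, salvage, convert or break down purines in the 8 libraries (circles clone 1, squares clone 3, bars the mean of the 2 clones), every axis from 0. Dck and Ada were lowest and Xdh and Mthfd2 highest in the Jak2V617F GLUT1/3 WT clones, and Ak4 was lowest in the Jak2V617F dKO clones, at 18.2 and 18.6 FPKM.

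Other genes of these lists met the rule between the backgrounds. Among GLUT1/3 WT clones, Nt5c3, a cytosolic nucleotidase that is not specific to purines, was higher in Jak2V617F by 0.80 (limma adjusted p = 0.00670). Ak1 was higher by 0.89 (0.0171) and Mthfd2 by 0.62 (0.00319), and Ak6 was lower by 0.75 (0.00737) and Adk, adenosine kinase, by 0.47 (0.0443). Among dKO clones, Ampd3, an AMP deaminase, was higher in Jak2V617F by 1.01 (0.00599), and Mthfd2 was lower by 0.48 (0.0126) and the nucleoside transporter Slc29a2 by 0.38 (0.0339). Slc29a2 was higher with the dKO in Jak2WT by 0.56 (0.0128). Of these, the calls of Nt5c3, Ampd3 and of Mthfd2 among GLUT1/3 WT clones were kept under every alternative tried. The call of Ak6 was lost without Jak2WT GLUT1/3 WT clone 3 (0.0553), that of Ak1 without the same clone or Jak2V617F GLUT1/3 WT clone 1 (0.101 and 0.0902), and that of Mthfd2 among dKO clones without either Jak2WT dKO clone or Jak2V617F dKO clone 1 (0.0588 to 0.0795). Adk (up to 0.181) and Slc29a2 (up to 0.182 between the backgrounds and 0.0999 in Jak2WT) lost their calls when any 1 of the libraries compared was left out, except Slc29a2 without Jak2V617F dKO clone 3.

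Since Hprt served as the RT-qPCR standard of the study, its range over the groups was set beside 9 common reference genes. The highest group mean of Hprt was 1.42 times the lowest, in Jak2V617F GLUT1/3 WT (210 ± 14.3 FPKM, SD, n = 2) and Jak2V617F dKO (148 ± 1.01). This ratio was smallest for Tbp (1.17) and Ywhaz (1.27) and largest for B2m (2.74), Actb (1.98) and Gapdh (1.93). Gapdh was low in this table, at 5.28 to 18.2 FPKM, and the clones of its highest group differed from each other more than the groups did, with 7.08 and 18.2 FPKM. Ppia (1.40), Sdha (1.41), Rplp0 (1.42) and Gusb (1.53) lay between. Hprt ranged over the groups about as widely as Ppia, Sdha and Rplp0 and more widely than Tbp.

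**Figure D5:**
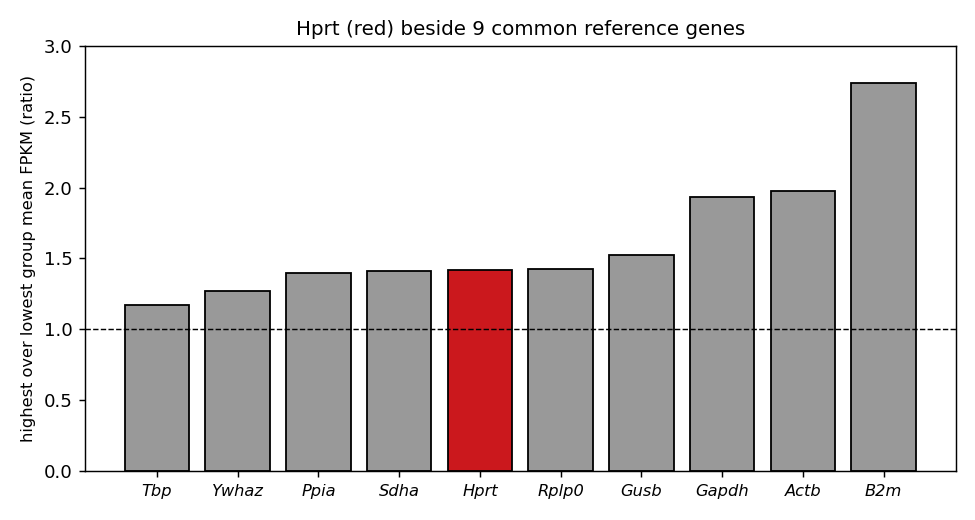
Ratio of the highest to the lowest of the 4 group mean FPKM values for Hprt (red) and 9 common reference genes (grey), bars from 0 and a dashed line at 1. Tbp had the smallest ratio (1.17), Hprt had 1.42 and B2m had the largest (2.74).

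Over the 8 libraries, the members did not follow a single pattern. The log2 values of Gart and Pfas (Pearson r = 0.92) and of Adsl and Atic (0.93) went together most closely, whereas Hprt went against Gart (-0.72), Pfas (-0.78), Adsl (-0.79) and Atic (-0.77). Paics had values of -0.01 with Adsl and -0.13 with Atic, and 0.61 with Ppat, its neighbour. Outside all lists, the genes closest to the mean of the members were Wdr5 (r = 0.98), Ubtf (0.98), Lrrc59 (0.98), Gm17082 (0.98) and Orc2 (0.98), and those closest to Hprt were Gfus (0.99), Maf1 (0.98), Cops6 (0.98), Prrc2b (0.97) and Snx25 (0.97). These r values describe 8 libraries that form 4 pairs of clones, and they carry no p. Summed over the 10 members, the level was 552 to 623 FPKM.

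The scaling of the libraries moved all genes. With each library scaled to the same summed FPKM, the share of calls that were higher went from 55.7 to 33.9% for the dKO in Jak2WT, from 45.7 to 60.2% for the dKO in Jak2V617F, from 50.7 to 29.4% for Jak2V617F among GLUT1/3 WT clones and from 44.4 to 74.9% for the interaction, and by voom the shares were 39.1, 59.2, 34.5 and 69.7%. The median of all genes then lay at -0.12 for Jak2V617F against Jak2WT among GLUT1/3 WT clones and at 0.12 for the interaction. Under either scaling, Gart and Pfas kept their calls as lower in Jak2V617F among GLUT1/3 WT clones and higher with the dKO in Jak2V617F. The interaction of Gart was called only under these scalings. The part of the scaling in these differences was not tested.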

How the data were processed

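The data were 8 mRNA libraries of 32D clones (paired-end reads), grouped by their labels. For the deposited FPKM values, the authors trimmed reads with fastp 1.0.1, mapped them to mm39 with HISAT2 2.2.1 and assigned them to genes with featureCounts 2.0.6. Annotation version, strand setting and handling of multiple matches are not given in the sources used here. Multiplying FPKM by gene length and by 1 factor per library, found from the smallest step of its values (17.3 to 49.3 reads per FPKM and kilobase), returned whole reads for 100% of values (tolerance 0.01), 16846011 to 48884329 per library. Within groups, the spread of clones exceeded read sampling (chi-square 7.88 to 34.6 per gene).

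Genes reaching FPKM 1 in 2 libraries entered limma 3.58.1 (R 4.3.3) on log2(FPKM + 1), with 1 mean per group and an intensity trend (4 residual and 3.34 prior degrees of freedom), followed by Benjamini-Hochberg adjustment. An exact permutation test of 2 against 2 cannot go below p = 0.333. The script was tested on simulated data. Alternatives were pseudocount 0.1, other filters, no trend, robust estimates, other scalings, voom on recovered reads, fits restricted to the compared groups, a clone block, omission of each library and, for Impdh2 only and chosen after seeing the data, Impdh2-ps reads added to it. This gave 18 alternatives for the other genes, and 17 for the interaction. Members and lists were chosen with earlier results of these data known. Of the other purine genes, per comparison and direction, up to 4 called genes with the largest change were named. Some items that met this rule or stood on a list are not reported here. Figures used matplotlib 3.10.9.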

Additional observations from a re-analysis of the deposited data

Results flagged for a closer look

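Pfas is listed here because the effect of the dKO differed between the backgrounds by the test of the interaction (log2 difference 0.50, SE 0.13, limma adjusted p = 0.0482). It went from 10.8 and 11.6 to 19.0 and 20.9 FPKM with the dKO in Jak2V617F, and from 16.7 and 17.1 to 19.5 and 21.9 FPKM in Jak2WT. Of the other purine genes named, the same test gave Ada (1.38, limma adjusted p = 0.0155), Dck (1.19, 0.010), Xdh (-3.73, 0.00867) and Mthfd2 (-1.10, 0.00881). Mthfd2 had 43.6 and 42.9 FPKM in Jak2WT GLUT1/3 WT and 48.7 and 48.4 in Jak2WT dKO, beside 62.5 and 71.5 and then 33.0 and 35.9 in Jak2V617F. The Jak2V617F GLUT1/3 WT clones held the 2 lowest values of the 8 libraries for Pfas, Ada and Dck and the 2 highest for Xdh and Mthfd2. Groups of 2 clones are too small for a search for outlying samples. The call of Pfas was lost in 10 of 17 alternatives, among them all 8 fits that left out 1 library (limma adjusted p = 0.0509 to 0.165). Those of Ada, Dck and Mthfd2 were lost without either Jak2WT GLUT1/3 WT clone or Jak2WT dKO clone 1 (0.0502 to 0.0687), that of Ada also with no filter (0.0584), and that of Xdh without Jak2WT GLUT1/3 WT clone 3 (0.0522). What underlies these differences was not tested.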

How the results depend on the processing

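Of the recomputed values of the members, 811 kept their direction and side of the threshold, 31 lost a call, 13 gained one and 40 changed sign. The 16 of 50 differences that changed sign had sizes of at most 0.17. With no filter, 714 genes were called for the dKO in Jak2WT and 346 in the interaction, and 0 members were higher in either. With no intensity trend, 0 members were higher in the interaction.

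With the same summed FPKM, 1 member was lower with the dKO in Jak2WT, 4 were lower in Jak2V617F among GLUT1/3 WT clones and 2 were higher in the interaction. Signs changed for Gmps with the dKO in Jak2WT (-0.021), Impdh2 (0.012) and Gmps (0.011) with the dKO in Jak2V617F, Adsl (-0.044), Atic (-0.034) and Hprt (-0.092) between backgrounds among GLUT1/3 WT clones, Impdh2 among dKO clones (0.00078), and Ppat (0.18), Adsl (0.12) and Gmps (0.032) in the interaction. By voom, 2605 genes were called for the dKO in Jak2WT and 1896 in the interaction, 1 and 4 members were lower as above and 2 higher in the interaction. Signs changed for Impdh2 (0.012) and Gmps (0.0074) with the dKO in Jak2V617F, Adsl (-7.6e-05) and Hprt (-0.045) among GLUT1/3 WT clones, Impdh2 among dKO clones (0.0061), and Ppat (0.14) and Adsl (0.087) in the interaction. With only the groups compared, 2 members were higher with the dKO in Jak2WT and 2 in Jak2V617F, and 1617 genes were called for the dKO in Jak2V617F and 1028 between backgrounds among dKO clones.

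Leaving out 1 library in turn, 110 to 1974 genes were called for the dKO in Jak2WT, 2131 to 2985 for the dKO in Jak2V617F, 1583 to 3969 among GLUT1/3 WT clones, 620 to 1992 among dKO clones and 5 to 1256 in the interaction. Members higher were 0 to 1, 2 to 4 and 0 for the dKO in Jak2WT, in Jak2V617F and the interaction, and members lower were 0 to 1 for the dKO in Jak2V617F, 1 to 3 among GLUT1/3 WT clones and 0 to 1 among dKO clones. With the dKO in Jak2V617F, Paics ranged from -0.019 to 0.18, Impdh1 from -0.40 to 0.056, Impdh2 from -0.17 to 0.0082 and Gmps from -0.30 to 0.15. Among GLUT1/3 WT clones, Adsl ranged from -0.0042 to 0.21, Gmps from -0.18 to 0.0076 and Hprt from -0.024 to 0.15. Among dKO clones, Gart ranged from -0.041 to 0.16, Pfas from -0.13 to 0.028 and Impdh2 from -0.13 to 0.051. In the interaction, Ppat ranged from -0.13 to 0.11, Adsl from -0.17 to 0.044, Atic from -0.047 to 0.12 and Gmps from -0.38 to 0.073. A group left with 1 clone was assumed to vary like the others. The causes were not tested.

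Clones 1 and 3 share a number and no stated batch, and the deviations of equal numbers correlated between -0.254 and 0.152. With the clone number as a replicate block, 1323, 3226, 3355, 1769 and 956 genes were called in the 5 comparisons, and of the members Atic alone lost its call (limma adjusted p = 0.0560).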
